A study of Mus musculus with 38 samples.

Results

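This report describes 7 genes of the MHC class II pathway in isolated intestinal epithelial cells of mice before and during chemically induced colitis. The members were the rows named H2-Aa, H2-Ab1, H2-Eb1, H2-DMa, H2-DMb1, Cd74 and Ciita in the deposited count tables, 7 of 46078 gene identifiers. All 7 had counts in every group and passed the low-count filter in each comparison.

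MHC class II molecules display peptides from outside the cell to CD4+ T cells. Their alpha and beta chains assemble with the invariant chain, which fills the peptide groove until it is cut away in endosomes, where the DM molecule then helps peptides to bind. B cells, dendritic cells and macrophages carry class II constitutively, whereas intestinal epithelial cells and other non-professional cells make it when interferon gamma turns on the transactivator Ciita. Ciita does not bind DNA itself but is held by RFX, CREB and NF-Y proteins on the X and Y boxes of class II promoters.

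H2-Aa (ENSMUSG00000036594; chromosome 17, 34282744 to 34287827, minus strand), H2-Ab1 (ENSMUSG00000073421; 34263209 to 34269418, plus strand) and H2-Eb1 (ENSMUSG00000060586; 34305877 to 34316199, plus strand) encode the alpha and beta chains of H2-A and the beta chain of H2-E, and lie in the H2 complex (GRCm38). H2-DMa (ENSMUSG00000037649; 34135182 to 34139101) and H2-DMb1 (ENSMUSG00000079547; 34153072 to 34160230) encode the chains of DM on the plus strand of the same region. Cd74, the invariant chain (ENSMUSG00000024610; 60803848 to 60812646), lies on chromosome 18 and Ciita (ENSMUSG00000022504; 10488178 to 10527564) on chromosome 16, both on the plus strand. C57BL/6 mice make no H2-E alpha chain, so that H2-Eb1 has no partner there. Ciita overlaps Dexi on the opposite strand, which counting without regard to strand does not separate.

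The libraries were poly(A) RNA-seq libraries of C57BL/6 mice. WT mice were littermates with the floxed Hk2 alleles (Hk2 flox/flox) and no stated Cre, and KO mice (Hk2dIEC) carried the same floxed alleles together with Cre under the Villin promoter, which is active in intestinal epithelium. Hk2 encodes hexokinase 2. Mice were untreated (day 0; 4 WT and 5 KO) or had drunk water with DSS (dextran sodium sulfate, 1.5% by weight), which injures the colonic epithelium, for 3 days (7 WT and 8 KO) or 7 days (7 WT and 7 KO). DSS-treated mice were males 10 to 12 weeks old, and the ages of the untreated mice are not given per library, the labels naming both young mice (9 to 11 weeks) and old ones (86 to 92 weeks) for basal work. The labels call the source intestinal epithelial cells, while the series design speaks of colon tissue. Nothing says that libraries came from separate animals beyond the animal-like numbers in their names.

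Libraries held 10.5 to 60.6 M counts (median 43.2 M). All day 0 libraries carried another series prefix in their names than the later ones and had 6.25 to 45.6% mitochondrial ribosomal RNA counts, against 0.352 to 3.95% later, so day 0 and library series cannot be told apart. Hk2, the targeted gene, was 254 to 449 CPM (counts per M, scaled by TMM) in WT and 33.1 to 118 CPM in KO libraries on day 0. The library labelled d3_KO_345 had 435 CPM of Hk2, against 68.4 to 128 CPM in the other 7 KO libraries of day 3, and it goes against its label, so the comparisons and relations that hold it are also given without it. On day 3 the other KO libraries overlapped the WT range of 97.0 to 220 CPM, and on day 7 Hk2 was 228 to 611 CPM in WT and 56.1 to 268 CPM in KO libraries, which overlapped through d7_KO_420, the highest of KO. The library d0_KO_32 stood apart from the other 4 KO libraries of day 0, with 45.6% mitochondrial ribosomal RNA counts against 6.25 to 12.4%, a TMM factor of 0.487 against 0.960 to 1.11, and 439.1 to 693.6 in chi-square per gene from each of them, against 19.9 to 67.5 among them. Summed counts of 8 epithelial markers were 9491 to 19081 CPM over all libraries, those of 3 pan-leukocyte markers (Ptprc, Laptm5 and Coro1a) 6.88 to 190 CPM, and those of 9 B cell markers 0.352 to 20.9 CPM. In such bulk samples, fewer cells of a type and less RNA per cell cannot be told apart.

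Letters like those of X and Y boxes can be read in the promoters of 3 members, and these stretches are shown here. RefSeq windows from 250 bases before to 50 bases after the gene start (GRCm38.p6) were held for 4 of the 7 members, H2-Aa, H2-Eb1, H2-DMa and H2-DMb1. Capitals mark an X-box-like GNAACT and the Y box TGATTGG, motifs chosen after the sequences had been seen and searched on both strands, with no overlap between them. All 3 stretches lie before the gene start as RefSeq gives it, but that of H2-DMb1 lies inside the gene as counted, whose start at 34153072 is another than RefSeq's.
H2-Aa, chr17:34287855-34287916, minus strand: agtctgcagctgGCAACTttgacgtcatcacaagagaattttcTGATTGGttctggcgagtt
H2-Eb1, chr17:34305764-34305824, plus strand: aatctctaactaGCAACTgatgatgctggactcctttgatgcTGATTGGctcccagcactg
H2-DMb1, chr17:34153085-34153146, plus strand: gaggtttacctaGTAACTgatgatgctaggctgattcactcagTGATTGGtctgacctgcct
The X-box-like letters began 81, 91 and 94 bases before the RefSeq start of H2-Aa, H2-Eb1 and H2-DMb1, and 25, 24 and 25 letters separated them from the Y box. H2-Eb1 and H2-DMb1 shared the run aactgatgatgct of 13 letters, from within the X-box-like motif onward. Of 32851 windows of this length in the table, 42.8% held GNAACT, 7.82% held TGATTGG and 0.155% held both in this order with 15 to 30 letters between. Neither of the 2 windows listed for H2-DMa held the pair, and both (34122582 to 34122881 and 34125268 to 34125567) lie before the start of the gene as counted, at 34135182. A match describes letters and is not a measured binding site.

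Levels were then compared between members per length, as CPM per kilobase of exon, and Cd74 was the highest and Ciita the lowest member in each of the 6 groups. In KO libraries on day 7, Cd74 was 226 ± 116 (SD, n = 7) and H2-Ab1 54.6 ± 22.1 (SD, n = 7) CPM per kilobase. On the same scale H2-Eb1 was 47.8 ± 17.7 (SD, n = 7), H2-Aa 47.2 ± 19.1 (SD, n = 7), H2-DMa 10.4 ± 4.14 (SD, n = 7), H2-DMb1 9.22 ± 4.51 (SD, n = 7) and Ciita 2.83 ± 1.37 (SD, n = 7). The means of the 3 chain genes H2-Ab1, H2-Eb1 and H2-Aa differed by less than the SD between libraries, as did those of the DM genes. That SD does not compare genes within a library. Within libraries of KO on day 7, the ratio per length was 0.867 ± 0.095 (SD, n = 7) for H2-Aa to H2-Ab1 and 1.19 ± 0.182 (SD, n = 7) for H2-DMa to H2-DMb1. In each library the H2-Aa to H2-Ab1 ratio per length was between 0.421 and 1.05. The ratio of Cd74 to H2-Ab1 per length on day 7 was 4.01 ± 0.575 (SD, n = 7) in KO and 3.14 ± 0.421 (SD, n = 7) in WT, with overlapping ranges of 3.34 to 4.81 and 2.44 to 3.85.

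**Figure D1:**
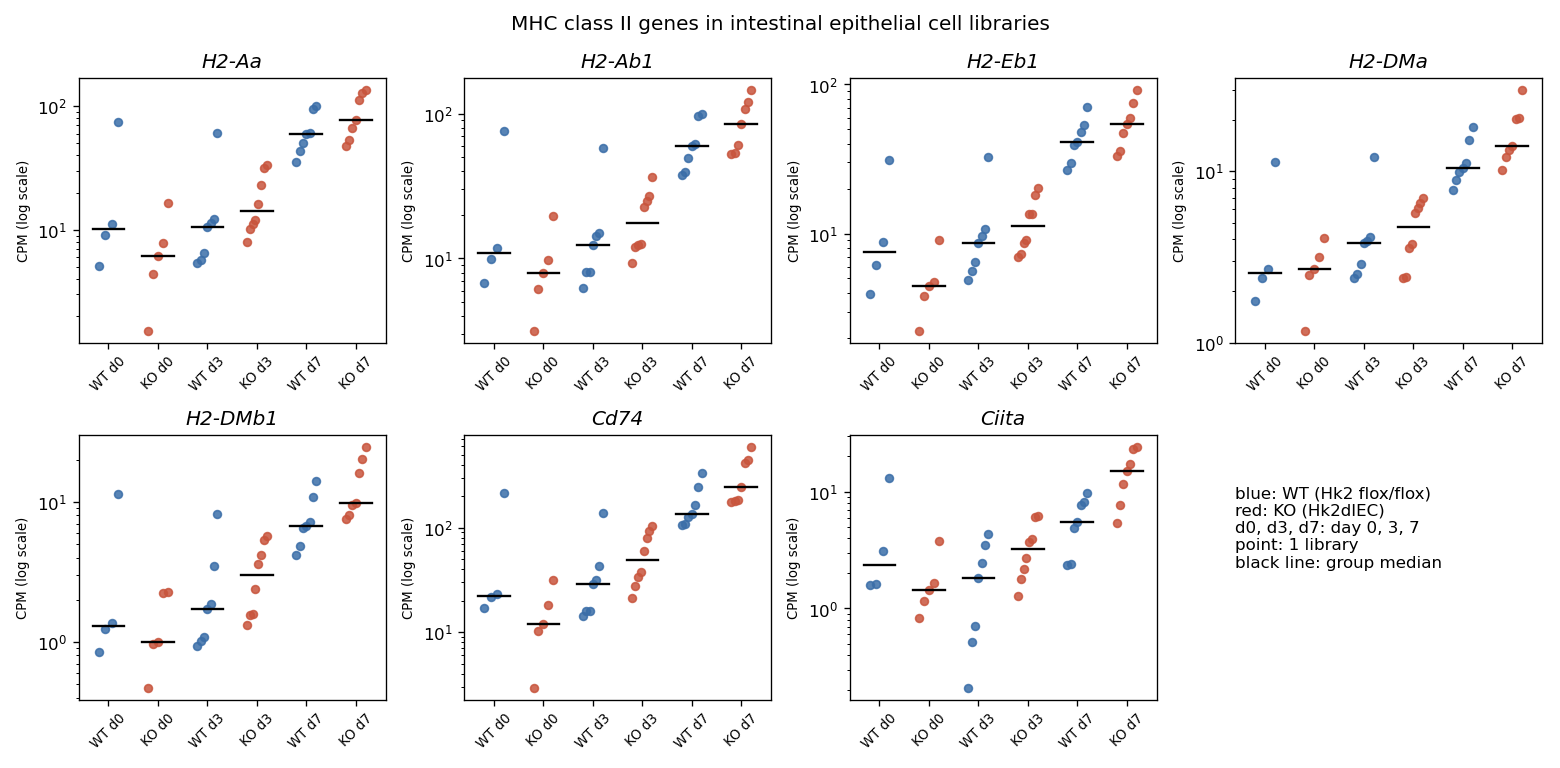
CPM on a log axis for each of the 7 genes in 38 libraries by genotype and day, where points are libraries and lines group medians. Day 7 groups sit highest, and 1 WT library on day 0 and 1 on day 3 sit well above the rest of their groups, as for Cd74 at 214 and 138 CPM.

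Before treatment the genes were low in 3 of the 4 WT libraries. Cd74 was 16.9, 21.5, 23.3 and 214 CPM in the WT libraries of day 0, and its lowest, median and highest levels in KO were 2.93, 12.0 and 31.7 CPM (n = 5). H2-Ab1 was 6.74, 9.93, 11.8 and 75.9 CPM in WT, and 3.17, 7.98 and 19.7 CPM at the lowest, median and highest KO library. In each case the highest value came from the library d0_WT_41, and without it the KO range would span the WT values. The lowest KO values came from d0_KO_32, and the next lowest were 10.4 CPM for Cd74 and 6.11 CPM for H2-Ab1.

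On day 3 the levels of Cd74 were 14.1, 29 and 138 CPM (lowest, median and highest; n = 7) in WT and 21.3, 48.6 and 103 CPM (n = 8) in KO. H2-Aa was 5.40, 10.5 and 60.7 CPM in WT and 7.96, 14.1 and 33.7 CPM in KO. Ciita, the transactivator, was 0.209, 1.82 and 4.32 CPM in WT and 1.28, 3.2 and 6.22 CPM in KO. The genotypes overlapped for all 3 genes, and d3_WT_381 was the highest library for Cd74 and H2-Aa but not for Ciita. The library labelled d3_KO_345 had 93.4 CPM of Cd74, 31.5 CPM of H2-Aa and 3.72 CPM of Ciita, and was neither the lowest nor the highest KO library for them.

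On day 7 Cd74 was 107, 134 and 331 CPM (n = 7) in WT and 175, 247 and 585 CPM (n = 7) in KO. H2-Aa was 35.1, 59.3 and 99.7 CPM in WT and 47.7, 76.8 and 134 CPM in KO. H2-Eb1 was 26.8, 41 and 70.4 CPM in WT and 33.1, 54.1 and 91.2 CPM in KO. These genes were highest in d7_KO_367 among KO and in d7_WT_419 among WT libraries, and the genotypes overlapped. The DM genes were lower, with H2-DMa at 7.78, 10.5 and 18.1 CPM in WT and 10.1, 14 and 29.6 CPM in KO, and H2-DMb1 at 4.18, 6.75 and 14.1 CPM in WT and 7.57, 9.83 and 24.5 CPM in KO. Ciita was 2.37, 5.53 and 9.69 CPM in WT and 5.42, 15 and 23.9 CPM in KO, where 5 of the 7 KO libraries were above every WT library.

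The course of colitis was examined by comparing day 7 with day 3, which share a library series. In WT, 6 of the 7 members rose, with 10.6% of all 15541 genes tested called higher (edgeR adjusted p under 0.05). Cd74 rose from 41.1 ± 43.9 to 174 ± 84.0 CPM (SD, n = 7 each), a log2 ratio of 2.07 (SE 0.49, edgeR adjusted p 0.00823). H2-Aa rose by 1.99 (SE 0.51), H2-Eb1 by 1.98 (SE 0.39), H2-Ab1 by 1.86 (SE 0.45), H2-DMb1 by 1.59 (SE 0.47) and H2-DMa by 1.37 (SE 0.34) on the log2 scale, with edgeR adjusted p of 0.0023 to 0.0268. Ciita was 1.93 ± 1.58 CPM on day 3 and 5.81 ± 2.83 CPM on day 7 (SD, n = 7 each), and its difference of 1.59 (SE 0.54) missed the threshold with an edgeR adjusted p of 0.0518. Without d3_WT_381 all 7 passed, and Cd74 had 2.77 (SE 0.35, edgeR adjusted p 9.09e-05).

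In KO, 7 of the 7 members rose from day 3 to day 7, with 10.5% of 15568 genes called higher. Cd74 rose from 57.0 ± 31.7 (SD, n = 8) to 318 ± 163 CPM (SD, n = 7), a log2 ratio of 2.44 (SE 0.38, edgeR adjusted p 0.000323). Ciita rose from 3.48 ± 1.87 (SD, n = 8) to 14.9 ± 7.21 CPM (SD, n = 7), with 2.06 (SE 0.38, edgeR adjusted p 0.00102). The other 5 members rose by 1.83 to 2.24, with edgeR adjusted p of 6.03e-05 to 0.000846. Without the library labelled d3_KO_345, Cd74 had 2.57 and Ciita 2.07, and all 7 passed. The median over the members was 1.86 in WT and 2.14 in KO, beside 0.013 and -0.0067 over all genes tested. The test of the difference between these changes called 0 of the 7 members and 0% of 16371 genes (440 genes at an unadjusted p under 0.05), and Cd74 had an interaction of 0.40 (SE 0.63, edgeR adjusted p 1), while the DESeq2 Wald test also called 0 of the 7. The test of the difference, with d3_KO_345 left out, called 0 of the 7 (409 of 16330 genes at an unadjusted p under 0.05), and Cd74 had 0.53 (SE 0.64, edgeR adjusted p 1).

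**Figure D2:**
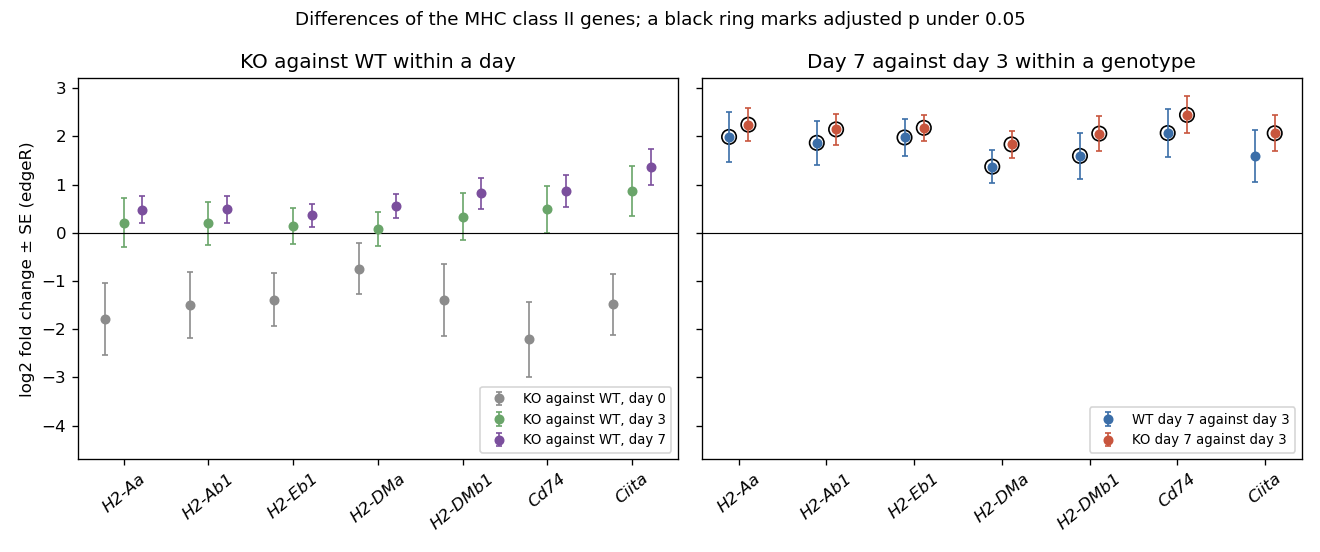
Log2 fold changes with their standard errors from edgeR for the 7 genes, comparing KO with WT on days 0, 3 and 7 (left) and day 7 with day 3 in each genotype (right). Rings mark adjusted p under 0.05: none on the left, and 6 WT and 7 KO points on the right.

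The effect of the Hk2 deletion was asked by comparing KO with WT within each day. On day 7, 0 of the 7 members passed, with 0.00642% of 15584 genes called and 2017 genes having an unadjusted p below 0.05. By the Wald test of DESeq2, 1 member passed, Ciita, among 99 of 15936 genes called. Ciita had the largest difference, with 14.9 ± 7.21 CPM in KO and 5.81 ± 2.83 CPM in WT (SD, n = 7 each), a log2 ratio of 1.36 (SE 0.37, edgeR adjusted p 0.291, DESeq2 adjusted p 0.0428). Cd74 differed by 0.87 (SE 0.33, edgeR adjusted p 0.331) and H2-DMb1 by 0.82 (SE 0.32, edgeR adjusted p 0.34). H2-DMa differed by 0.55, H2-Ab1 by 0.49, H2-Aa by 0.48 and H2-Eb1 by 0.36, with edgeR adjusted p of 0.369 to 0.518. The median of the 7 was 0.55, beside -0.0048 over all genes tested.

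On day 3, 0 of the 7 members passed, with 0.00647% of 15461 genes called and 1218 having an unadjusted p below 0.05. By the Wald test of DESeq2, 0 members passed, with 1 of 28617 genes called. The log2 fold changes of KO against WT were 0.071 (H2-DMa) to 0.87 (Ciita, SE 0.52, edgeR adjusted p 0.645), with the library labelled d3_KO_345 included. Without it 0 passed, and Ciita had 0.86 (SE 0.55, edgeR adjusted p 0.774). Cd74 had 0.48 (SE 0.49), 0.35 (SE 0.51) without that library, and 1.19 (SE 0.38, edgeR adjusted p 0.646) without d3_WT_381. Leaving out d3_WT_381 also moved H2-Aa from 0.21 to 1.07 and H2-Ab1 from 0.19 to 0.88.

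On day 0, 0 of the 7 members passed, with 0.0335% of 14944 genes called and 1563 having an unadjusted p below 0.05. By the Wald test of DESeq2, 0 of the 5 members given an adjusted p passed, with 165 of 13723 genes called. Cd74 averaged 69.0 ± 97.0 CPM (SD, n = 4) among WT and 15 ± 10.8 CPM (SD, n = 5) among KO libraries, a log2 ratio of -2.21 (SE 0.78, edgeR adjusted p 0.38). Ciita averaged 4.87 ± 5.58 CPM (SD, n = 4) among WT and 1.77 ± 1.16 CPM (SD, n = 5) among KO libraries, with -1.49 (SE 0.64, edgeR adjusted p 0.462). Without d0_WT_41 these were -0.47 for Cd74 (edgeR adjusted p 0.906) and -0.31 for Ciita (edgeR adjusted p 0.939), and H2-DMa and H2-DMb1 turned to 0.23 and 0.27. Over all days together, 0 members passed, with 0.0209% of 19144 genes called (2257 at an unadjusted p under 0.05), the smallest edgeR adjusted p of a member being 0.506, and the DESeq2 Wald test called 0. With d3_KO_345 left out, 0 members passed over all days (2082 of 19120 genes at an unadjusted p under 0.05).

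Comparisons with day 0 also hold the library series. In KO on day 7, 7 of the 7 members were called higher than on day 0, with 27.3% of 16367 genes called higher. Cd74 had a log2 ratio of 4.37 (SE 0.53, edgeR adjusted p 1.26e-05) and Ciita 3.05 (SE 0.45, edgeR adjusted p 7.64e-05). All 3 pan-leukocyte markers were also called higher there, with a median of 2.55, and 7 of the 9 macrophage markers, with 1 called lower and a median of 4.07. With the leukocyte score as a covariate, 0 of the 7 members passed, with 1497 of 16367 genes called, against 8937 without the score. Cd74 then had 2.60 (SE 0.94, edgeR adjusted p 0.108). The part of these cells in the difference was not tested. In KO on day 3, 5 of the 7 were called higher, with 22.6% of 16010 genes called higher, and 3 of the 7 without the library labelled d3_KO_345. Other single libraries also moved that count, which was 3 without d3_KO_385, d3_KO_388, d0_KO_24 or d0_KO_32 and 2 without d3_KO_392, d0_KO_53 or d0_KO_54. In WT on day 7, 2 of the 7 were called higher (H2-Eb1 with 1.78, SE 0.48, and H2-DMa with 1.33, SE 0.45), with 27.8% of 17428 genes called higher. Without d0_WT_41 the count in WT on day 7 was 7 of the 7, and Cd74 moved from 1.30 (SE 0.65, edgeR adjusted p 0.105) to 3.04 (edgeR adjusted p 6.94e-05). It was 1 without d0_WT_31, d0_WT_43 or d0_WT_46. In WT on day 3, 0 of the 7 were called, with 46% of 17152 genes called in either direction. Of these 17152 genes, 9167 had an unadjusted p below 0.05. By the Wald test of DESeq2, 0 of the 3 members given an adjusted p passed, with 10398 of 23949 genes called. Cd74 had -0.77 (SE 0.75) there and 0.99 without d0_WT_41, and without d3_WT_381 1 member, H2-Aa, was called lower.

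The library d0_WT_41 was examined across the marker lists because the comparisons with WT on day 0 changed without it. All 7 members were highest in it among the 9 day 0 libraries. So were 16 of 17 interferon gamma target genes, Cxcl10 being the other one. Gbp2, an interferon-induced GTPase, was 86.3 CPM there and 3.05 to 15.9 CPM in the other 8. Iigp1, an immunity-related GTPase, was 46.9 CPM there and 0.117 to 4.43 CPM in the other 8. Tap1, the peptide transporter of class I presentation, was 85.4 CPM there and 21.6 to 30.5 CPM elsewhere. The B cell markers summed to 0.708 CPM in d0_WT_41, within the 0.352 to 8.54 CPM of the other 8, and 0 of 9 were highest in it. Pan-leukocyte markers summed to 24.7 CPM (others 14.2 to 32.6), dendritic cell markers to 3.63 CPM (others 1.64 to 3.82), macrophage markers to 87.6 CPM (others 72.5 to 106) and T cell markers to 8.83 CPM (others 4.48 to 12.4). Within WT alone (n = 4), its pan-leukocyte, dendritic cell and T cell sums were the highest, the group medians being 20.3, 3.17 and 4.86 CPM. Its B cell sum was the lowest of WT, and its macrophage sum lay within the WT range of 76.2 to 89.7 CPM. Of the macrophage markers 4 of 9 were highest in it, C1qa, C1qb, C1qc and Cx3cr1, at 1.18 to 1.42 CPM each. The mean log2 CPM over the 9 macrophage markers was 1.355 in d0_WT_41, above that of the other 8 (next highest 1.14). Ifng itself was 0.189 CPM, with up to 0.235 CPM in the other 8.

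The library d3_WT_381 was examined across the same lists on day 3, against the other 6 WT libraries. Its members summed to 313 CPM, against 36.1 to 91.0 CPM in those 6. Its interferon gamma target genes summed to 525 CPM, against 128 to 295 CPM. KO libraries of day 3 reached 213 CPM for the members and 513 CPM for the target genes. In d3_WT_381 the B cell markers summed to 0.603 CPM (others 0.628 to 2.24) and the dendritic cell markers to 1.15 CPM (others 1.34 to 3.36), both the lowest of the group. The pan-leukocyte sum was 18.9 CPM, within the others' 6.88 to 40 CPM, and 8 of 9 B cell markers were at 0. Its epithelial and colonocyte markers, at 17983 and 11397 CPM, were the highest of the group, while KO libraries of day 3 reached 19081 and 10596 CPM. The library also stood apart in its RNA, with 26.7 M counts against 41.2 to 50.1 M in the other 6, 3.95% mitochondrial ribosomal RNA counts against 0.352 to 1.18%, 19084 genes detected against 21780 to 22381, and a TMM factor of 0.682 against 1.01 to 1.18. Its chi-square per gene from the others was 462 to 1085, against 24.7 to 252.2 among them. The part of these in its levels of the members was not tested.

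**Figure D3:**
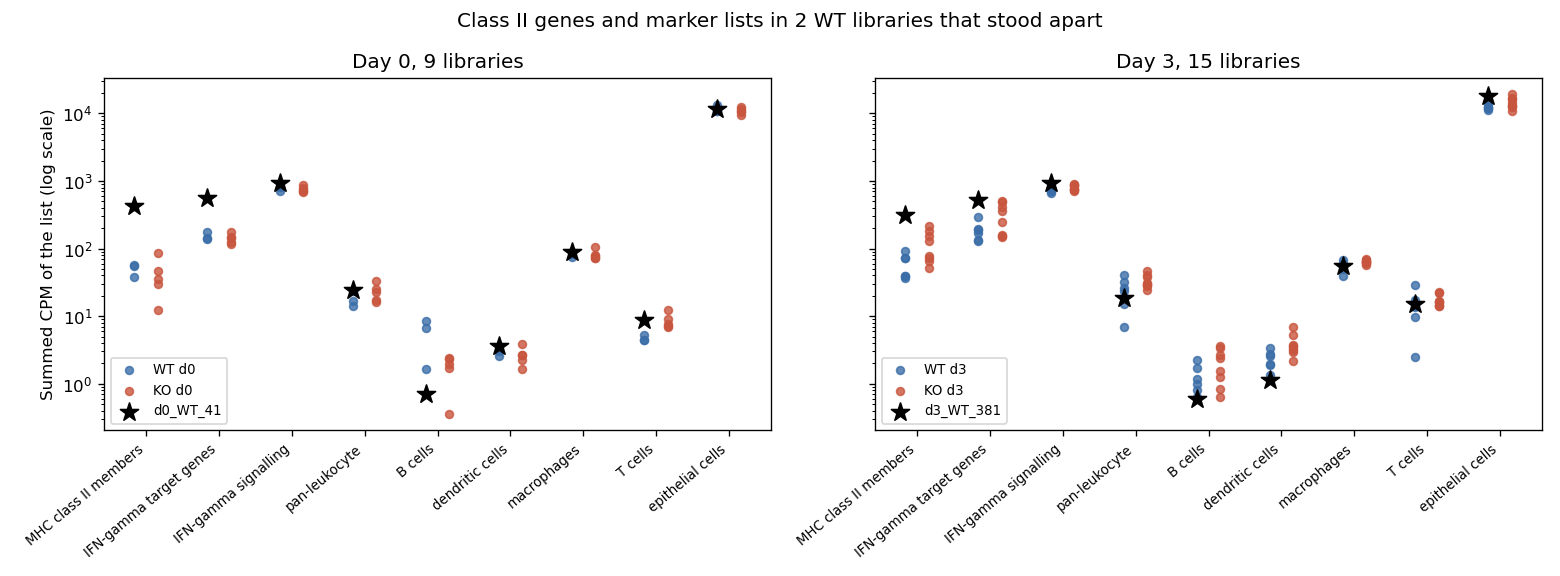
Summed CPM on a log axis of the class II members and of marker lists, per library, on day 0 and day 3, with the stars marking d0_WT_41 and d3_WT_381. The stars lie above all other libraries for the members (431.3 and 313 CPM) and the interferon gamma target genes (560 and 525 CPM), and not for the pan-leukocyte, B cell, dendritic cell, macrophage or T cell lists.

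The other genes of the pathway did not move as one. Of the 7 genes of the complex that holds Ciita on DNA (Rfx5, Rfxap, Rfxank, Nfya, Nfyb, Nfyc and Creb1), 0 rose and 1 fell from day 3 to day 7 in each genotype. The one that fell was Rfxank, by 0.45 (SE 0.08, edgeR adjusted p 0.000769) in WT and fell by 0.51 (SE 0.09, edgeR adjusted p 0.0011) in KO on the log2 scale. Of 14 tested genes of class II antigen processing, 8 rose and 1 fell in each genotype, the median being 0.42 in WT and 0.40 in KO. March1, a ubiquitin ligase that removes class II from the surface of B cells and dendritic cells, rose by 3.49 (SE 0.54, edgeR adjusted p 0.000396) in WT and 3.05 (SE 0.40, edgeR adjusted p 9.21e-05) in KO. The protease gene Lgmn rose by 1.32 in WT and 1.31 in KO, and Sppl2a, a protease that clears fragments of the invariant chain, by 0.54 and 0.45. Ctse, cathepsin E, fell by 2.33 (SE 0.32, edgeR adjusted p 0.000165) in WT and fell by 2.78 (SE 0.30, edgeR adjusted p 2.45e-05) in KO. H2-Oa and H2-Ob, which encode the DM inhibitor DO found mainly in B cells, were named after their values were seen, and rose by 2.91 and 2.54 in WT and by 2.11 and 1.57 in KO, with edgeR adjusted p of 2.91e-05 to 0.00645. On day 7, H2-Oa and H2-Ob had -0.53 and -0.35 in KO against WT (edgeR adjusted p 0.369 and 0.677). Of the 14 tested processing genes, 2 were above 0 in that comparison, with a median of -0.074, while the 7 members were above 0.

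Interferon gamma signalling and its target genes were followed because they lie upstream of and beside Ciita. From day 3 to day 7, 7 of 17 target genes rose in WT and 15 of 17 in KO, with 0 falling, and medians of 1.02 and 1.57. The KO count was 16 of 17, with a median of 1.83, when d3_KO_345 was left out. The test of the difference between the changes called 0 of the 17, with a median of 0.50, and 0 with a median of 0.63 without that library. Ido1, an enzyme that degrades tryptophan, rose by 2.23 (SE 0.75, edgeR adjusted p 0.0483) in WT and 3.41 (SE 0.71, edgeR adjusted p 0.00267) in KO. Gbp5, another GTPase, rose by 2.93 in WT and 3.25 in KO. The chemokine gene Cxcl9 rose by 2.47 in WT, and Gbp4 by 2.87 in KO. Of the signalling genes, 2 of 7 tested rose in WT (Ifngr1 by 0.40 and Jak2 by 0.37) and 4 of 8 in KO, among them Socs1 by 1.46, Irf1 by 0.51 and Ifng. Ifng, which encodes interferon gamma and had a mean level below 1 CPM, was named after its values were seen and rose by 2.55 (SE 0.45, edgeR adjusted p 0.000742) in KO. It was too low to be tested in WT, and in KO without the library labelled d3_KO_345, where 3 of 7 signalling genes rose. In KO against WT on day 7, 0 of 17 target genes passed, although all 17 log2 fold changes were above 0, with a median of 1.12. Ido1 had 1.76 (SE 0.57, edgeR adjusted p 0.291) and Psmb8 0.50 (SE 0.24, edgeR adjusted p 0.392), the ends of that range. On day 3 all 17 were also above 0, with a median of 0.56 and 0 passing, the library labelled d3_KO_345 included, and without it 16 of 17 were above 0, with a median of 0.33 and 0 passing. On day 0, 0 of 14 tested target genes were above 0 and 0 passed, with a median of -0.82 and the lowest at -3.03, d0_WT_41 included.

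Markers of leukocytes moved with the members between days 3 and 7. All 3 pan-leukocyte markers rose in each genotype, Ptprc by 1.69 in WT and 1.43 in KO. Their summed level was 6.88 to 40 CPM in WT and 24.6 to 46.1 CPM in KO on day 3, and 36.8 to 190 CPM in WT and 65.2 to 162 CPM in KO on day 7. Of the macrophage markers 8 of 9 rose in each genotype, of 5 tested B cell markers 5 in WT, of 7 tested 5 in KO, and of the dendritic cell markers 4 of 4 tested in WT and 3 of 5 in KO. B cell markers summed to at most 2.24 CPM in WT and 3.58 CPM in KO on day 3, and to 2.07 to 13.3 CPM in WT and 1.94 to 20.9 CPM in KO on day 7. Of the neutrophil markers 6 of 6 rose in each genotype, with medians of 9.66 in WT and 6.41 in KO, and of 7 tested T cell markers 2 rose in WT and 7 in KO. The neutrophil markers summed to at most 1.03 CPM in WT and 34.5 CPM in KO on day 3, and to 79.2 to 878 CPM in WT and 31.3 to 1392 CPM in KO on day 7. Of 7 colonocyte markers 3 fell in WT and 4 in KO. Leaving out d3_KO_345, the KO counts were 3 of 3 for pan-leukocyte, 8 of 9 for macrophage, 4 of 7 for B cell, 3 of 4 for dendritic cell, 7 of 7 for T cell and 6 of 6 for neutrophil markers, the last with a median of 8.99, while 4 colonocyte markers fell and 1 rose. All 9 B cell, 9 dendritic cell and 9 macrophage markers had counts in each group. With a score of these 30 markers as a covariate in edgeR, 0 of the 7 members passed in either genotype. Cd74 then had 2.70 (SE 1.07) in WT and 1.47 (SE 0.72) in KO, with edgeR adjusted p of 0.101 and 0.624. Ciita had 0.36 (SE 1.09, edgeR adjusted p 0.854) in WT and 2.07 (SE 0.76, edgeR adjusted p 0.481) in KO, and the other 5 members had 1.97 to 3.19 in WT and 1.14 to 1.36 in KO. Without the library labelled d3_KO_345, 0 passed in KO and Cd74 had 1.72 (SE 0.79, edgeR adjusted p 0.49). With the score, genes called over the whole table went from 3002 to 1732 in WT and from 3008 to 3 in KO. The part of these cells in the rise was not tested.

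Between genotypes on day 7, the pan-leukocyte, B cell, dendritic cell and macrophage lists had 0 genes called, with medians of 0.32, -0.15, -0.09 and 0.61. Only 1 of 15584 genes was called in that comparison. Above 0 were 3 of 3 pan-leukocyte and 8 of 9 macrophage markers, but 2 of 8 tested B cell and 2 of 9 dendritic cell markers. Ciita differed by 1.36 (SE 0.37, edgeR adjusted p 0.354) and Cd74 by 0.81 (SE 0.32, edgeR adjusted p 0.403) with the leukocyte score as a covariate, close to the 1.36 and 0.87 without it.

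How the members varied among libraries of one group was described for days 3 and 7, with the library labelled d3_KO_345 kept in its labelled group and then left out. Cd74 was related to each of the other 6 members in the 4 groups, and 19 of these 24 relations passed (exact permutation test of Pearson's r, two-sided, adjusted p under 0.05 over 56 relations). In KO on day 7, Pearson's r was 0.844 to 0.982 and Spearman's rho 0.821 to 0.964 (n = 7). In WT on day 7, r was 0.573 to 0.949 (n = 7), in KO on day 3 0.771 to 0.986 (n = 8) and in WT on day 3 0.79 to 0.985 (n = 7). By Spearman's rho, 9 of all 56 relations passed (exact permutation test). Cd74 with Ciita had the lowest Pearson's r of each group and did not pass by it in any, with r of 0.573 in WT on day 7 (exact permutation adjusted p 0.296) and 0.844 in KO on day 7 (exact permutation adjusted p 0.0535). By Spearman's rho it passed in KO on day 7 (rho = 0.929, exact permutation adjusted p 0.042). Of the 32 relations of Cd74 and Ciita with B cell, dendritic cell, macrophage and T cell scores, 1 passed, Cd74 with the T cell score in WT on day 7 (r = 0.875, rho = 0.964, exact permutation adjusted p 0.0351). In KO on day 7, r of Cd74 was 0.291 with the B cell, 0.161 with the dendritic cell and 0.311 with the macrophage score. Each relation was also computed without the 2 libraries farthest from the median of the other member or the score, which left 5 or 6 libraries. Then 0 of the 56 passed, and r of Cd74 with the other members was 0.171 to 0.851 in WT on day 7 and 0.744 to 0.992 in the other groups. With 5 libraries the exact permutation test cannot give an unadjusted p below 0.0083. The count of 0 therefore cannot tell whether relations were lost. Without the library labelled d3_KO_345, 19 of the 24 relations with the other members passed by r and 8 of the 56 by rho (exact permutation tests), and in KO on day 3 r was 0.796 to 0.986 (n = 7).

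Relations with the interferon gamma target score, the mean log2 CPM of the 17 target genes, were added after the data were seen. For Cd74, r was 0.915 in WT and 0.92 in KO on day 3, and 0.629 in WT and 0.793 in KO on day 7. For Ciita it was 0.764 and 0.895 on day 3 and 0.912 and 0.928 on day 7. Of these 8 relations 7 passed (exact permutation test, adjusted p 0.00813 to 0.0474), Cd74 in WT on day 7 being the other one (exact permutation adjusted p 0.14). Without the 2 libraries farthest from the median of the score, r was 0.454 to 0.925, with 0 passing among 5 or 6 libraries. The same lowest possible p applies there, so that count cannot tell whether relations were lost. With this score as a covariate, also added, Cd74 rose from day 3 to day 7 by 1.28 (SE 0.33, edgeR adjusted p 0.0382) in WT and had 0.93 (SE 0.30, edgeR adjusted p 0.0877) in KO. In those fits 2 members passed in WT, with 791 of 15541 genes called, and 3 in KO, with 789 of 15568 genes called. Without the score 3002 genes were called in WT and 3008 in KO. Without the library labelled d3_KO_345, 7 of the 8 relations passed (exact permutation test), with r on day 3 in KO of 0.901 for Cd74 and 0.951 for Ciita. Also without that library, 1 member, H2-Eb1, passed in the KO fit with the score, with 910 of 15413 genes called. Cd74 had 0.90 (SE 0.34, edgeR adjusted p 0.16) in that fit.

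**Figure D4:**
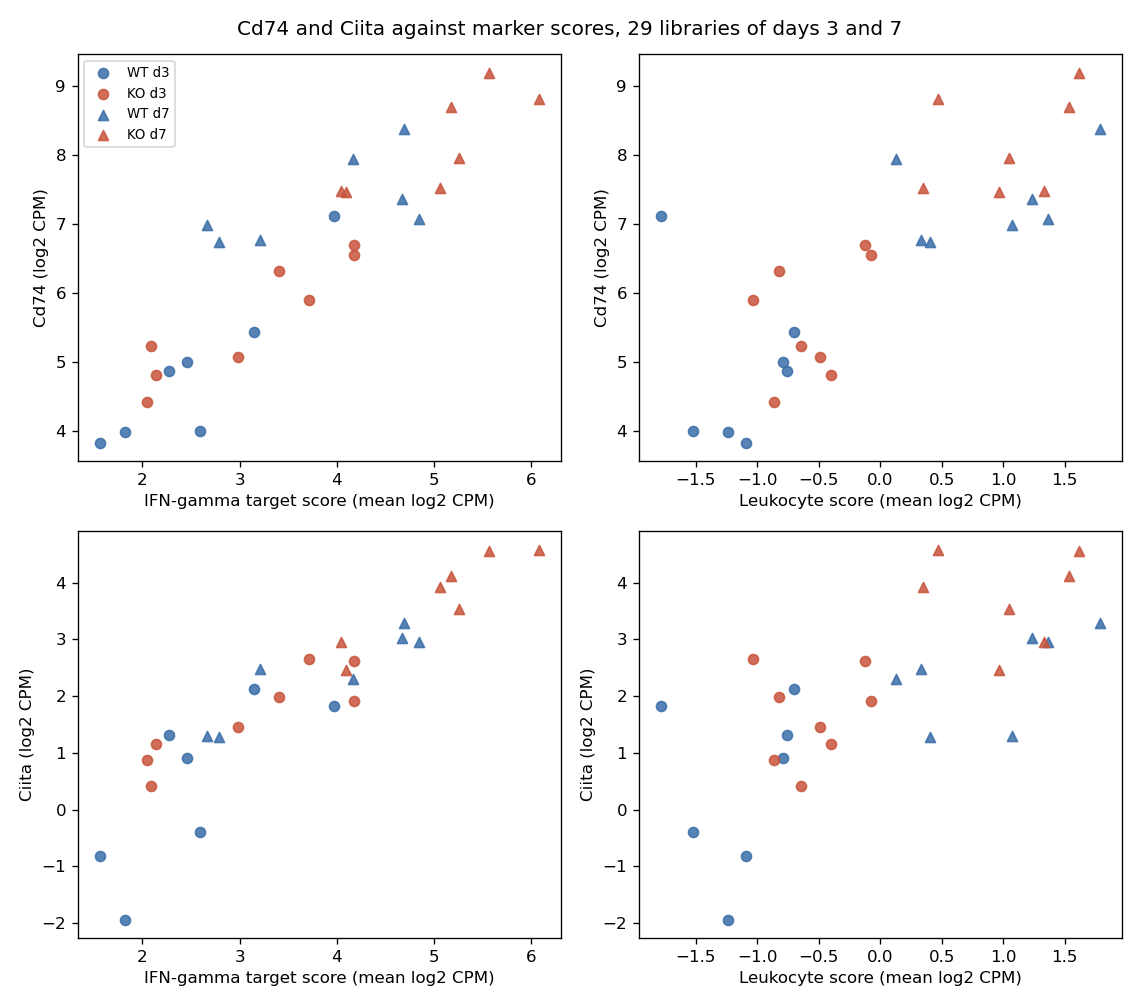
Cd74 (top) and Ciita (bottom) in log2 CPM against the interferon gamma target score (left) and the leukocyte score of 30 markers (right), both mean log2 CPM, in the 29 libraries of days 3 (circles) and 7 (triangles). Points of both genotypes lie along a band on the left, while on the right d3_WT_381 is the leftmost point and has the highest Cd74 of day 3.

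The genes whose pattern was most like that of Cd74 were sought by Pearson's r over the 29 libraries of days 3 and 7, with log2 CPM centred on each group, among 11544 genes with a mean log2 CPM of at least 1. That level left 0 of 9 B cell, 1 of 9 dendritic cell, 7 of 9 macrophage and 5 of 8 T cell markers. The others could not appear among the genes found. The 5 genes with the highest r were members, H2-Ab1 (0.972), H2-Aa (0.966), H2-DMb1 (0.964), H2-Eb1 (0.937) and H2-DMa (0.922). The next 6 were B2m (0.884), Psmb9 (0.883), Psmb8 (0.856), Gm12250 (0.836), Iigp1 (0.835) and Ifi47 (0.817). B2m is the light chain of class I molecules, Psmb8 and Psmb9 are subunits of the immunoproteasome, and Iigp1 and Ifi47 are interferon-inducible GTPases. Ciita ranked 22 for Cd74, with 0.757. For Ciita the 6 non-members with the highest r were Nlrc5 (0.887), Irgm2 (0.868), Iigp1 (0.856), Irf1 (0.844), Igtp (0.84) and Gm5431 (0.837). Nlrc5 is the transactivator of class I genes, a relative of Ciita, and Irf1 a transcription factor of the interferon response. Psmb8, Psmb9, Iigp1, Irgm2, Igtp and Irf1 are also on the lists above, and Psmb8 and Psmb9 lie in the H2 complex. The r of Cd74 was 0.331 to 0.409 with the 3 pan-leukocyte markers and 0.508 to 0.883 with 16 ranked target genes. It was 0.239 to 0.541 with the ranked T cell markers, which overlaps the target genes, and 0.098 to 0.397 with the ranked macrophage markers. With the epithelial markers it was 0.038 to 0.507. When d3_KO_345 was left out, the same 6 non-members led for Cd74, with r of 0.812 to 0.878, and the same 6 for Ciita, with 0.837 to 0.897. The points share libraries and depth, and these values are a description.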

How the data were processed

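RNA from isolated intestinal epithelial cells was sequenced in 38 TruSeq stranded mRNA libraries, per the labels' protocols. The authors deposited featureCounts gene counts, 2 lanes per library; per the file headers version 1.6.2 counted read pairs without strand, while the submitters' processing notes name featureCounts 1.5.2, STAR, Trim Galore and GRCm38. Lanes were summed (lowest correlation of lanes 0.989). Replicates differed beyond sampling noise. Groups came from the titles. The main test was edgeR 4.0.16 (R 4.3.3): TMM, filterByExpr by group, glmQLFit and glmQLFTest, Benjamini-Hochberg over all genes tested, called under 0.05, each comparison fitted on its own groups. P-values measure the spread between libraries. CPM are TMM-scaled, and log2 CPM use a prior count of 2.

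The 7 members, the marker lists and the tests were chosen with earlier results of these data known. Named genes are the members in each comparison, up to 3 called genes per list and direction with the largest change and a mean log2 CPM of at least 0, and the 6 genes most like Cd74 and Ciita. H2-Ea, on the processing list, is not analysed here. Alternatives were DESeq2 1.42.0 (size factors, Wald test), other filters, 1 lane, all 38 libraries in 1 fit, mitochondrial and immunoglobulin genes removed, leukocyte or small intestine score covariates, a log2 fold change of at least 1, and leaving out each library. Lists, relations and covariate fits without d3_KO_345 were added after the data were seen. Single values of some listed genes are not reported here.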

Additional observations from a re-analysis of the deposited data

Results flagged for a closer look

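In the 42 sets of 1 member and 1 group, 13 held a library whose gap to its nearest neighbour was too large for the group's range by Dixon's criterion, which is met by chance in about 1 in 20 independent sets. Of the 13, 12 came from 2 libraries, and levels of the members were correlated between libraries, so the sets are not independent and that rate does not apply to their number. The criterion was applied to CPM without a log transform. In WT on day 0, d0_WT_41 stood above the other 3 libraries for 6 members. It had 73.9 CPM of H2-Aa (next 11.2), 75.9 CPM of H2-Ab1 (next 11.8), 11.3 CPM of H2-DMa (next 2.71), 11.3 CPM of H2-DMb1 (next 1.35), 214 CPM of Cd74 (next 23.3) and 13.2 CPM of Ciita (next 3.08). In WT on day 3, d3_WT_381 stood above the other 6 libraries for 6 members. It had 60.7 CPM of H2-Aa (next 12.1), 58.1 CPM of H2-Ab1 (next 15.1), 32.6 CPM of H2-Eb1 (next 10.7), 12.1 CPM of H2-DMa (next 4.13), 8.22 CPM of H2-DMb1 (next 3.50) and 138 CPM of Cd74 (next 43.2). In KO on day 0, d0_KO_60 had 3.77 CPM of Ciita, and the next library 1.66 CPM. No set of day 7 was among the 13.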

How the results depend on the processing

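No paired analysis was possible because the groups share no replicate numbers. Of the members' log2 fold changes and counts, 734 values left in turn without 1 library and 604 under the other alternatives kept their direction and their side of the threshold, 21 and 4 turned direction, 28 and 57 lost the call and 15 and 15 gained it. The counts of members called changed by over 1.5 times as follows, and the cause was not tested. With the leukocyte score as a covariate the count was 0 for day 7 against day 3 in WT and in KO and 0 for day 7 against day 0 in WT and in KO, and it was 2 for KO day 3 against day 0. Genes called over the whole table also fell with that score, from 9919 to 4235 for WT day 7 and from 7409 to 5800 for KO day 3 against day 0. With the interferon gamma target score, a covariate added after the data were seen, the count of members called was 2 in WT and 3 in KO for day 7 against day 3. With d3_KO_345 also left out, added likewise, it was 0 with the leukocyte and 1 with the interferon gamma target score for KO day 7 against day 3, and 2 with the leukocyte score for KO day 3 against day 0. In 1 fit of all 38 libraries it was 2 for KO and 1 for WT on day 3 against day 0. A mean CPM of at least 1 gave 3 for KO day 3 against day 0, and no filter gave 4 for WT day 7 against day 0. The DESeq2 Wald test gave 1 for KO against WT on day 7, where it called 99 of 15936 genes. Leaving out 1 library gave 5 to 7 for WT and 7 for KO on day 7 against day 3, 1 to 7 for WT day 7, 2 to 7 for KO day 3 and 0 to 1 for WT day 3 against day 0.

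With a small intestine marker score in the model, WT day 3 against day 0 turned to 0.019 for H2-Aa, 0.35 for H2-Eb1 and 0.38 for H2-DMa. With the leukocyte score, Ciita turned to -0.34 for WT day 7 against day 0. Leaving out 1 library moved KO against WT on day 0 from -0.995 to 0.23 for H2-DMa and from -1.71 to 0.27 for H2-DMb1. On day 3 it moved KO against WT from -0.0043 to 1.07 for H2-Aa, -0.019 to 0.88 for H2-Ab1, -0.022 to 0.67 for H2-Eb1 and -0.050 to 0.51 for H2-DMa, the lowest value being without d3_KO_392 and the highest without d3_WT_381. For WT day 3 against day 0 the range was -1.53 to 0.90 for H2-Aa, -1.29 to 0.85 for H2-Ab1, -0.71 to 0.82 for H2-Eb1, -0.48 to 0.95 for H2-DMa, -1.13 to 1.13 for H2-DMb1 and -1.47 to 0.99 for Cd74, the highest being without d0_WT_41. For WT day 7 against day 0 Ciita ranged from -0.064 to 1.397. The fewest counts were those of KO on day 0, with 4 to 35 of H2-DMb1 and 7 to 38 of Ciita a library, the lowest of both in d0_KO_32, which had 17.5 M counts in all.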
